A study of Mus musculus with 18 samples.

Results

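The amino acid transporters examined here are 9 genes whose products carry amino acids across the plasma membrane, taken by name as a family: Slc7a5, Slc7a6, Slc7a11, Slc3a2, Slc7a1, Slc1a4, Slc1a5, Slc38a1 and Slc38a2. They are 9 of the 28096 genes in the count tables, and all 9 passed the filter on low counts, which left 14161 genes for testing. These genes and the related gene lists below were chosen with earlier results of these data known. RNA was sequenced from B cells isolated from the spleens of C57BL/6 N mice at least 8 weeks old, either wild type (WT) or Ubqln1-/-. The mutant mice derived from ES cells in which exon 2 of Ubqln1 was deleted, so the deletion was present in every tissue and not only in B cells. Cells of each genotype were kept for 4 hr without stimulation (resting), with F(ab)2 of anti-IgM at 10 μg/mL, which crosslinks the B cell receptor, or with LPS of the K12 strain of E.coli at 20 μg/mL, a ligand of TLR4. Each of the 6 groups had 3 libraries, each library was made from pooled culture wells, and the study describes the libraries of a group as independent experiments. Whether they came from separate mice is not given in the sources used here, and p-values measure the spread between these libraries.

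Lymphocytes leaving rest take up more amino acids as they build protein, nucleotides and glutathione. SLC3A2 (CD98) is the heavy chain that brings several light chains to the cell surface, among them SLC7A5 (LAT1), which exchanges glutamine for leucine and other large neutral amino acids, SLC7A6, which exchanges cationic for neutral amino acids, and SLC7A11 (xCT), which imports cystine in exchange for glutamate. SLC7A1 (CAT1) carries arginine and lysine without a heavy chain, SLC1A4 and SLC1A5 (ASCT1 and ASCT2) exchange small neutral amino acids, with glutamine carried by SLC1A5, and SLC38A1 and SLC38A2 (SNAT1 and SNAT2) bring in glutamine and alanine together with sodium.

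The 9 genes are protein-coding, and counts were summed over their exons. Their spans in RefSeq (GRCm38.p6) are chr8:121881146-121907686 for Slc7a5, chr8:106168219-106198714 for Slc7a6, chr3:50364936-50499087 for Slc7a11 and chr19:8706882-8723369 for Slc3a2. Slc7a1 lies at chr5:148327410-148399904, Slc1a4 at chr11:20302180-20332713 and Slc1a5 at chr7:16781334-16798274. Slc38a1 and Slc38a2 are near each other, at chr15:96571418-96643438 and chr15:96687392-96699728.

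Total counts ran from 15368941 to 41072854 per library, with a median of 23257531. Ubqln1, read as a check of the labels, lay between 24.8 and 34.8 RPKM in the 9 Ubqln1-/- libraries and between 62.3 and 92.0 RPKM in the 9 WT libraries, and its exons outside the deletion could still be counted. RPKM here means the count divided by exon length and TMM-scaled library size, and CPM the count divided by TMM-scaled library size without exon length. The summed level of 6 B cell markers was 2196 to 8366 CPM, and it was lower after anti-IgM (WT median 2329 CPM) than at rest (7338 CPM). Of 6 T cell markers, Cd3d, Cd3e, Cd3g, Cd4 and Cd8a stayed at or below 1.09 CPM in every library, while Lck was 30.7 to 222 CPM and carried a rise of the list after anti-IgM (WT median 46.5 CPM at rest and 141 CPM after anti-IgM). Markers of NK cells, neutrophils and erythroid cells summed to at most 0.559, 0.996 and 4.29 CPM. Macrophage and monocyte markers summed to between 21.7 and 57.7 CPM, and the sum was highest at rest, carried by Adgre1. In WT cells mean Adgre1 was 6.75 RPKM at rest, 2.10 with anti-IgM and 2.98 with LPS. Cd68 went the other way, at 7.13, 11.7 and 9.78 RPKM. The dendritic cell list rose from 11.4 to 17.7 CPM in resting WT libraries to 40.6 to 68.7 CPM with LPS, carried by Flt3 and Zbtb46, with Siglech at most 0.319 CPM. The plasma cell list was lower in Ubqln1-/- than in WT libraries in each condition, without overlap. It was 252 to 465 CPM in resting WT and 185 to 214 CPM in resting Ubqln1-/- libraries. With anti-IgM it was 214 to 404 CPM and 154 to 187 CPM, and with LPS 146 to 328 CPM and 98.0 to 130 CPM. Mean Jchain at rest was 117 ± 59.9 RPKM in WT and 62.2 ± 6.55 RPKM in Ubqln1-/- cells (SD, n = 3). The part of these lists in the transporter results was not tested, and in bulk RNA fewer cells of a type and less RNA per cell cannot be told apart.

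Sequence upstream of the transporter genes was read from RefSeq (GRCm38.p6), where 8 windows of 250 bases matched 6 of the genes: Slc7a11, Slc3a2, Slc1a4 and Slc38a2 with 1 window each, and Slc7a1 and Slc7a6 with more than 1. The Slc7a6 windows, chr8:106168604-106168853 and chr8:106168671-106168920, share most of their bases. No window was available for Slc7a5, Slc1a5 or Slc38a1, so nothing is said of their upstream sequence. Each window was searched on both strands for an E-box (CACGTG), the amino acid response element (TGATGNAA), the core of the antioxidant response element (TGACNNNGC), an AP-1 site (TGANTCA) and a CRE (TGACGTCA). The 3 windows below are shown because they belong to the gene that responded least to anti-IgM (Slc7a11), to a strongly induced carrier with matches (Slc7a1) and to the gene with the largest fold change (Slc1a4). They run 5′ to 3′ on the minus strand, the strand of the genes, and end at the base before the start, with matches in capitals.
Slc7a11, chr3:50443614-50443863: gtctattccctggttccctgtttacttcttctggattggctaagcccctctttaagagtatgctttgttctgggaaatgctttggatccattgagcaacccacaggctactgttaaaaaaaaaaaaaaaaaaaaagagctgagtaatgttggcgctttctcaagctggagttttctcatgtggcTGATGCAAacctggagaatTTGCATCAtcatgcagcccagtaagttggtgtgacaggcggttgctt
Slc7a1, chr5:148399905-148400154: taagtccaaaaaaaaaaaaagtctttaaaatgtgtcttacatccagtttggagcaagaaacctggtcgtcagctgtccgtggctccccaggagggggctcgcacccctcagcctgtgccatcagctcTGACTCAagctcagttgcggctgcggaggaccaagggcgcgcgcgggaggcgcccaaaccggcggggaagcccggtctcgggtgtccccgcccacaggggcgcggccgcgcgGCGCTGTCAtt
Slc1a4, chr11:20332714-20332963: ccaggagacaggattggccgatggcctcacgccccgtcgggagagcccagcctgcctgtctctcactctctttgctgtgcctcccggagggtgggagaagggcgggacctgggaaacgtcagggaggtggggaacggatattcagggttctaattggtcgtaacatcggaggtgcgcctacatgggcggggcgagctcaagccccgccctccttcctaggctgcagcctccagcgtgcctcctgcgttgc
The Slc7a11 window held 2 matches to the amino acid response element, 1 on each strand, their first bases 66 and 47 bases upstream of the start, and it was the 1 of 8 windows that held any, against 3.45% of all 32851 windows. In the Slc7a1 window the capitals mark an AP-1 match 123 bases upstream (6.75% of all windows) and an antioxidant core match on the reverse strand 11 bases upstream (10.2% of all windows). The antioxidant core was also found in 1 window each of Slc7a6 and Slc38a2. None of these 5 motifs was in the Slc1a4 window, and no E-box (6.02% of all windows) or CRE (1.55%) was in any of the 8. The Slc7a11 window lies inside the RefSeq span of the gene, which also has a start farther upstream. A match is a description of letters and not of binding.

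At rest the 9 genes covered a wide range of RNA levels. In WT cells Slc1a5 was highest at 142 ± 10.5 RPKM (SD, n = 3), followed by Slc38a2 at 122 ± 12.3 RPKM, with overlapping ranges. Slc3a2 (54.2 ± 8.52 RPKM) and Slc38a1 (52.1 ± 1.45 RPKM) came next and overlapped each other, as did Slc7a5 (37.8 ± 12.7 RPKM) and Slc7a1 (21.8 ± 4.03 RPKM), and Slc7a1 and Slc7a6 (20.3 ± 1.04 RPKM). Slc1a4 stood apart at 3.59 ± 1.35 RPKM and Slc7a11 was last at 0.409 ± 0.0715 RPKM. Slc7a11 rested on 48 to 202 counts per library over the whole series, and Slc1a4 on 127 to 4521. In Ubqln1-/- cells at rest the same 2 glutamine carriers led, with Slc1a5 at 142 ± 5.98 RPKM and Slc38a2 at 121 ± 8.37 RPKM.

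**Figure D1:**
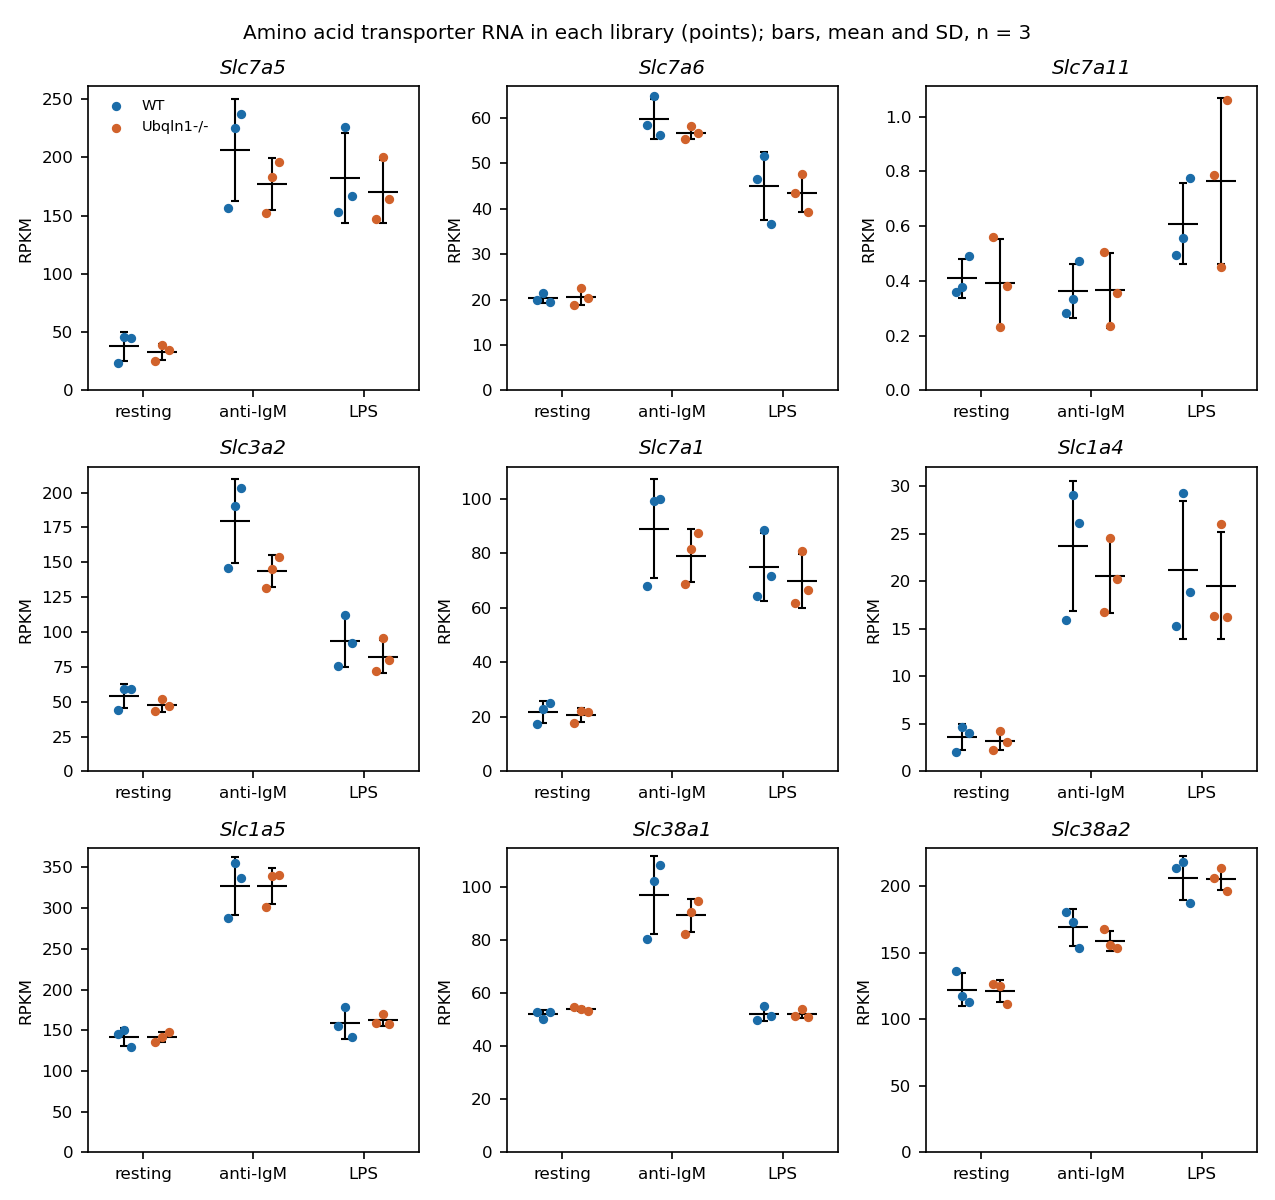
RNA level (RPKM, linear axes from 0) of each transporter in the 18 libraries, by condition and genotype, with points for libraries and black bars for mean and SD (n = 3). Slc7a5, Slc7a6, Slc7a1 and Slc1a4 rose with both stimuli, whereas Slc1a5 and Slc38a1 rose with anti-IgM and stayed near their resting level with LPS.

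To ask how B cell receptor crosslinking changed the transporters, anti-IgM libraries were compared with resting libraries of the same genotype. In WT cells 8 of the 9 genes rose and none fell, where 64.6% of all genes tested were called, 32.4% higher and 32.2% lower. The median log2 fold change of the 9 genes was 1.56 and that of all genes tested was -0.01. In Ubqln1-/- cells 8 of 9 also rose, where 65.3% of all genes were called, 32.9% higher and 32.4% lower, with a median of 1.46. Slc7a11 was the exception in both genotypes. Changes of more than log2 1 were called for 6 of 9 in each genotype, where 20.6% of all genes in WT and 20.3% in Ubqln1-/- cells were, and changes of more than log2 2 at adjusted p under 0.001 for 3 of 9 in WT cells (Slc1a4, Slc7a5 and Slc7a1; 3.76% of all genes) and 2 of 9 in Ubqln1-/- cells (3.64%).

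The CD98 heavy chain rose together with the light chains Slc7a5 and Slc7a6. Slc7a5 was 23.2, 45.7 and 44.6 RPKM in the 3 resting WT libraries and 156, 225 and 238 RPKM after anti-IgM. The groups were far apart, and the increase was 5.44-fold (log2 2.44 ± 0.24 SE, edgeR adjusted p = 1.94e-07). Among Ubqln1-/- libraries Slc7a5 was 25.7, 39.0 and 35.1 RPKM at rest and 153, 184 and 196 RPKM after anti-IgM, a 5.33-fold increase. The heavy chain Slc3a2 went from 44.4, 59.3 and 59.0 RPKM to 146, 190 and 203 RPKM in WT cells, with every stimulated library above every resting one (3.31-fold, log2 1.73 ± 0.16 SE, edgeR adjusted p = 6.86e-08). Ubqln1-/- cells had 43.1, 51.9 and 47.2 RPKM of Slc3a2 at rest and 132, 145 and 154 RPKM after anti-IgM, again without overlap. Slc7a6, a second light chain, rose from 20.0, 21.5 and 19.4 RPKM to 58.3, 64.7 and 56.3 RPKM in WT cells. This was a 2.94-fold increase (log2 1.56 ± 0.11 SE, edgeR adjusted p = 3.36e-09), with 2.76-fold in Ubqln1-/- cells.

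The cystine carrier Slc7a11 did not follow its heavy chain. It was 0.360, 0.376 and 0.491 RPKM in resting WT libraries and 0.281, 0.333 and 0.472 RPKM after anti-IgM, with overlapping groups (log2 -0.19, 95% interval -0.96 to 0.57, edgeR adjusted p = 0.661). The values in Ubqln1-/- cells were 0.559, 0.233 and 0.381 RPKM at rest and 0.505, 0.234 and 0.356 RPKM after anti-IgM, which also overlapped. Its standard error here was 0.36 on the log2 scale, near that of Slc1a4 (0.33).

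Among the carriers that need no heavy chain, the arginine and lysine carrier Slc7a1 and the small neutral amino acid exchanger Slc1a4 rose most. Slc7a1 was 17.4, 23.1 and 25.1 RPKM at rest and 68.1, 99.1 and 99.99 RPKM after anti-IgM in WT cells (4.07-fold, log2 2.03 ± 0.17 SE, edgeR adjusted p = 3.59e-08). Slc1a4 had the largest fold change of the 9 genes, from 2.07, 4.64 and 4.06 RPKM to 15.9, 29.0 and 26.1 RPKM (6.47-fold, log2 2.69 ± 0.33 SE, edgeR adjusted p = 1.81e-06). Slc7a1 rose 3.83-fold and Slc1a4 6.37-fold in Ubqln1-/- cells. Both genes were low in the first WT library at rest and after anti-IgM, yet no stimulated library reached down to a resting one.

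The glutamine carriers rose less, and of them Slc1a5 and Slc38a2 started high. Slc1a5 went from 145, 150 and 130 RPKM to 288, 356 and 337 RPKM in WT cells (2.31-fold, edgeR adjusted p = 1.09e-08), which made it the most abundant of the 9 transcripts after anti-IgM, apart from the next gene. Slc38a1 rose from 52.9, 50.4 and 53.0 RPKM to 80.6, 102 and 108 RPKM (1.86-fold, edgeR adjusted p = 1.1e-07). Slc38a2 had the smallest change that was called, from 136, 117 and 113 RPKM to 181, 173 and 154 RPKM (1.38-fold, log2 0.47 ± 0.08 SE, edgeR adjusted p = 0.000121). All 3 rose in Ubqln1-/- cells too, by 2.30-fold, 1.65-fold and 1.31-fold.

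LPS changed fewer of the transporters. In WT cells 6 of 9 rose and none fell, where 61.2% of all genes were called, 31.2% higher and 30.1% lower, and the median log2 fold change was 0.78 against -0.01 for all genes tested. Among Ubqln1-/- libraries 7 of 9 rose, where 60.7% of all genes were called, 30.6% higher and 30.2% lower. The 6 genes called in WT cells, Slc7a5, Slc7a6, Slc3a2, Slc7a1, Slc1a4 and Slc38a2, were called in Ubqln1-/- cells as well, and Slc7a11 was the additional one. Changes of more than log2 1 were called for 4 of 9 in each genotype, where 15.8% of all genes in WT and 15.9% in Ubqln1-/- cells were, and changes of more than log2 2 at adjusted p under 0.001 for 2 of 9 in each (1.8% and 1.74% of all genes).

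Slc7a5 reached 153, 226 and 167 RPKM with LPS in WT cells and 147, 200 and 164 RPKM in Ubqln1-/- cells, increases of 4.80-fold (edgeR adjusted p = 6.8e-07) and 5.13-fold (edgeR adjusted p = 4.68e-07) over rest. Slc1a4 reached 15.3, 29.3 and 18.9 RPKM in WT cells (5.79-fold, edgeR adjusted p = 4.76e-06). Slc7a1 reached 64.4, 88.6 and 71.8 RPKM (3.43-fold, edgeR adjusted p = 2.45e-07). These 3 genes had the largest increases with either stimulus. Slc7a6 rose 2.22-fold with LPS, to 46.6, 51.5 and 36.7 RPKM, and Slc3a2 rose 1.72-fold, to 75.9, 112 and 91.8 RPKM (edgeR adjusted p = 0.000331).

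The glutamine carriers parted with LPS. Slc38a2 rose to 214, 218 and 187 RPKM in WT cells, above every resting library (1.69-fold, edgeR adjusted p = 1.06e-06). Slc38a1 was 50.1, 55.0 and 51.4 RPKM and overlapped its resting libraries, and the 95% interval of its log2 change was -0.18 to 0.18. Slc1a5 was 155, 179 and 141 RPKM and overlapped the resting libraries (log2 0.16, 95% interval -0.03 to 0.36, edgeR adjusted p = 0.135). Without Ubqln1, Slc1a5 was 160, 171 and 158 RPKM with LPS against 136, 142 and 148 RPKM at rest, without overlap. That difference missed the threshold (log2 0.19, edgeR adjusted p = 0.0771) and passed it with the replicate number as a block (log2 0.19, edgeR adjusted p = 0.0238; 66.9% of all genes were called in that fit).

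Slc7a11 was 0.494, 0.556 and 0.776 RPKM with LPS in WT cells, every one above the resting libraries, the highest of which was 0.491 RPKM. The increase was not called (log2 0.57, 95% interval -0.16 to 1.29, edgeR adjusted p = 0.165). Without Ubqln1 it was 0.786, 0.452 and 1.06 RPKM and overlapped the resting range of 0.233 to 0.559 RPKM. The change there passed the threshold (1.94-fold, log2 0.96 ± 0.35 SE, edgeR adjusted p = 0.0253). It did not pass without LPS library 3 (log2 0.64, edgeR adjusted p = 0.148), LPS library 1 (0.94, adjusted p = 0.0526), resting library 3 (0.94, adjusted p = 0.0613) or resting library 2 (0.70, adjusted p = 0.113). The LPS response of Slc7a11 was not shown to differ between genotypes (difference of log2 changes 0.39, 95% interval -0.64 to 1.42).

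**Figure D2:**
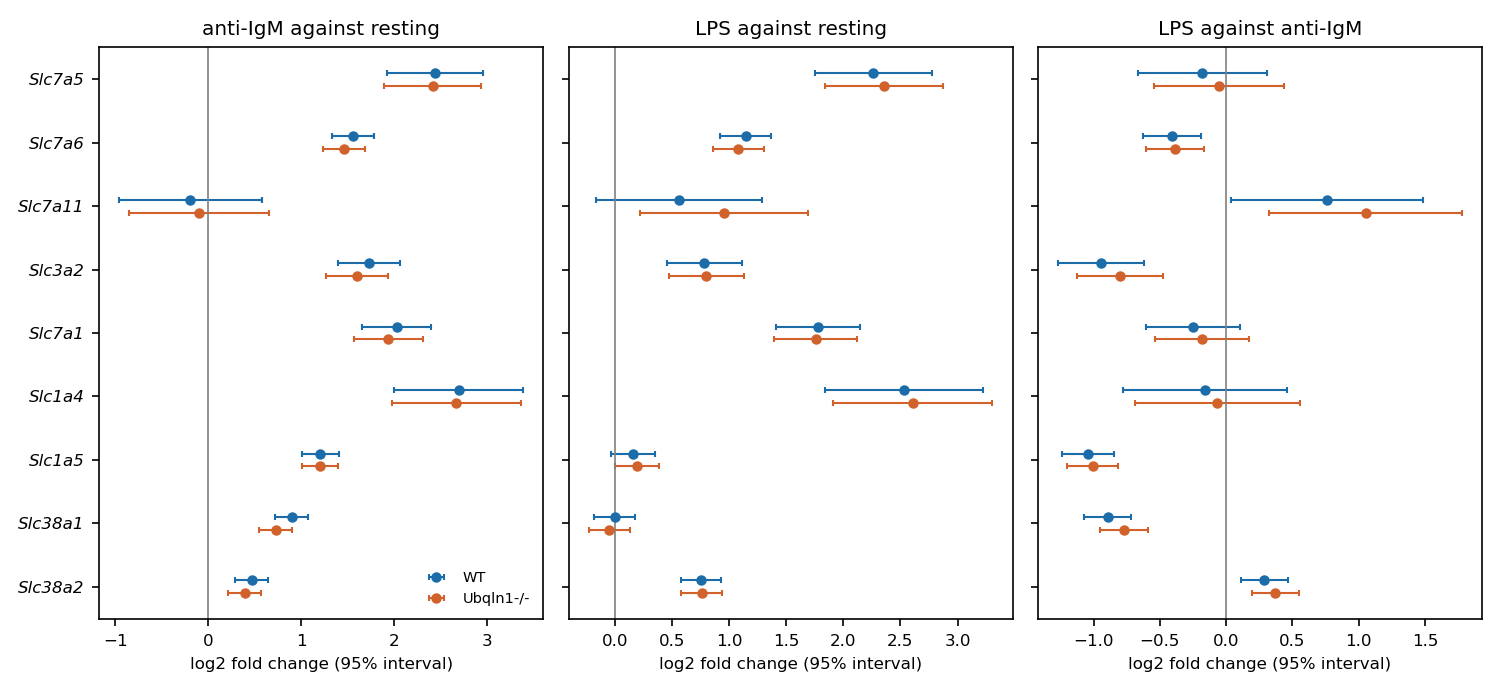
Log2 fold change with 95% interval for each transporter in WT and Ubqln1-/- cells, for anti-IgM against resting, LPS against resting and LPS against anti-IgM, with the grey line at no change. In the right panel Slc1a5, Slc3a2, Slc38a1 and Slc7a6 lie left of 0 and Slc38a2 and Slc7a11 lie right of it in both genotypes.

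The stimuli were then compared directly. In WT cells 4 transporters were lower with LPS than with anti-IgM and 1 was higher, where 32.4% of all genes were called, 15.0% lower and 17.4% higher. The 4 lower genes were Slc1a5 (log2 -1.04), Slc3a2 (-0.94), Slc38a1 (-0.90) and Slc7a6 (-0.41, edgeR adjusted p = 0.00506). Differences of more than log2 1 were called for 1 of 9 genes, where 9.42% of all genes were, and for none of 9 past log2 2 at adjusted p under 0.001 (2.51% of all genes). The same 4 were lower in Ubqln1-/- cells, by -1.01, -0.80, -0.77 and -0.38, where 31.3% of all genes were called, 14.5% lower and 16.8% higher, and differences of more than log2 1 were called for 2 of 9 (8.73%) and past log2 2 for none (2.24%). Of these, Slc7a6 in Ubqln1-/- cells lost its call without LPS library 3 (log2 -0.32, edgeR adjusted p = 0.051).

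Slc38a2 was the gene higher with LPS in WT cells (log2 0.29 ± 0.08 SE, edgeR adjusted p = 0.014) and was higher in Ubqln1-/- cells (log2 0.37, edgeR adjusted p = 0.00262). The WT call was lost when only the compared groups were fitted (log2 0.28, edgeR adjusted p = 0.055) and without LPS library 2 (adjusted p = 0.0563), LPS library 1 (0.0532) or anti-IgM library 3 (0.0716). Slc7a11 was higher with LPS than with anti-IgM in Ubqln1-/- cells (log2 1.05 ± 0.34 SE, edgeR adjusted p = 0.027), a call lost without LPS library 3 (log2 0.74, adjusted p = 0.156), LPS library 1 (0.0656), anti-IgM library 3 (0.0724) or anti-IgM library 2 (log2 0.80, adjusted p = 0.126). In WT cells the difference was log2 0.76 (edgeR adjusted p = 0.105), and it passed with the replicate block (edgeR adjusted p = 0.0211), where 42.8% of all genes were called.

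For Slc7a5, Slc1a4 and Slc7a1 the stimuli were not told apart in the fit without the block. Their log2 differences in WT cells were -0.18 (95% interval -0.67 to 0.31), -0.16 (-0.78 to 0.46) and -0.25 (-0.60 to 0.10). With the replicate block Slc7a1 was called lower with LPS (log2 -0.24, edgeR adjusted p = 0.0209).

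Because SLC7A5, SLC7A6 and SLC7A11 share the heavy chain SLC3A2, the RPKM of light chains was set against that of Slc3a2 within each library, adding the further light chains Slc7a7 and Slc7a8. These ratios were chosen after the gene values were seen. In WT cells the ratio was 1.07, 1.22 and 1.17 at rest, 1.51, 1.55 and 1.48 with anti-IgM and 2.68, 2.51 and 2.27 with LPS. In Ubqln1-/- cells it was 1.15, 1.28 and 1.27 at rest, 1.62, 1.71 and 1.68 with anti-IgM and 2.71, 2.64 and 2.61 with LPS. The ranges of the 3 conditions did not overlap in either genotype, and with anti-IgM the Ubqln1-/- ratios lay above all WT ratios. Slc7a5 supplied 58.8 ± 8.72% of the light chain sum in resting WT cells and 78.6 ± 2.75% with LPS (SD, n = 3).

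Within the glutamine carriers, the ratio of Slc38a2 to Slc38a1 in WT cells was 2.35 ± 0.222 at rest, 1.79 ± 0.421 with anti-IgM and 3.96 ± 0.316 with LPS (SD, n = 3). The ratio of Slc1a5 to Slc1a4 was 44.9 ± 22.0 at rest, 14.4 ± 3.18 with anti-IgM and 7.91 ± 2.03 with LPS. The resting value of the latter was spread by 1 library at 70.2 against 32.3 and 32.0 in the others. Over the 27 comparisons of these 3 ratios the lowest two-sided exact permutation p was 0.1, the smallest that 3 against 3 libraries allow, and 0.15 after Benjamini-Hochberg adjustment, so none could pass a threshold of 0.05.

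**Figure D3:**
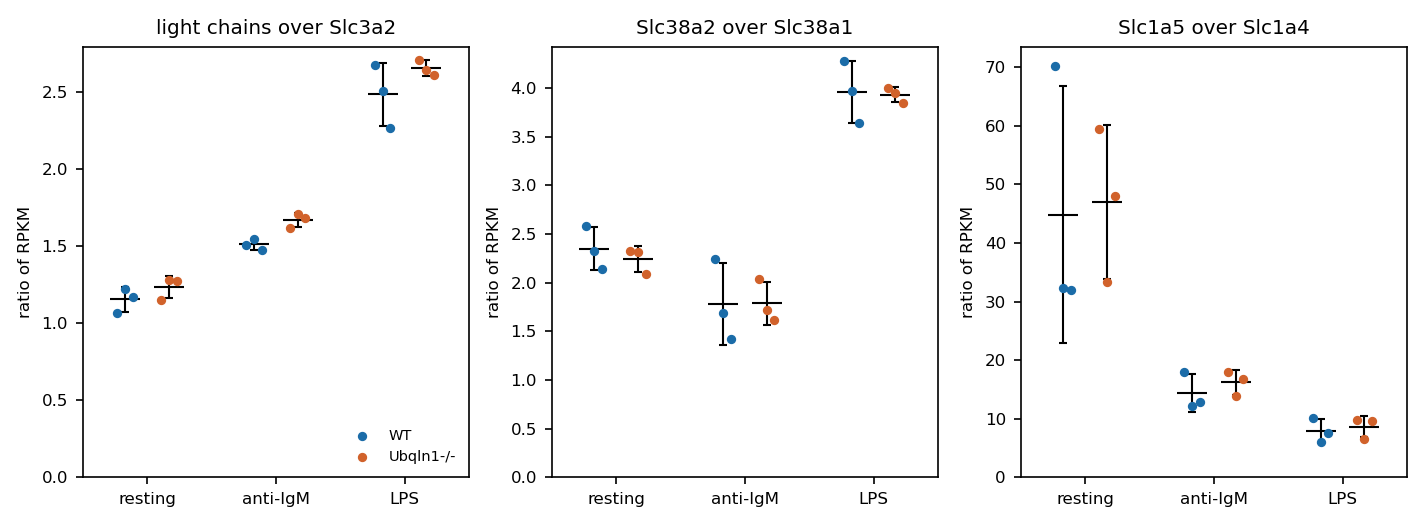
Ratio of RPKM values within each library, for light chains (Slc7a5, Slc7a6, Slc7a11, Slc7a7 and Slc7a8) over Slc3a2, Slc38a2 over Slc38a1 and Slc1a5 over Slc1a4, with points for libraries and bars for mean and SD (n = 3). The light chain ratio steps up from rest to anti-IgM to LPS in both genotypes, while the Slc1a5 to Slc1a4 ratio steps down.

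To ask whether Ubqln1 affected the transporters, genotypes were compared in each condition. None of the 9 genes was called by edgeR in any condition, and none had an unadjusted p under 0.05, where 0.0565% of all genes were called at rest, 0.0989% with anti-IgM and 0.0424% with LPS. With limma-voom and DESeq2 the number was also 0, as it was with the replicate block, where 0.346%, 0.664% and 0.883% of all genes were called in the 3 conditions. An unadjusted p under 0.05 was reached by 4.22%, 5.14% and 3.93% of all genes. The log2 differences lay between -0.32 and 0.32. The intervals were narrow for the abundant glutamine carriers, where Slc1a5 with anti-IgM had a log2 difference of 0.00029 (95% interval -0.19 to 0.19). They were wide for Slc1a4 with anti-IgM (log2 -0.21, 95% interval -0.83 to 0.41) and for Slc7a11 with LPS (log2 0.32, 95% interval -0.38 to 1.01).

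The largest decrease was in Slc3a2 with anti-IgM, at 132, 145 and 154 RPKM in Ubqln1-/- and 146, 190 and 203 RPKM in WT libraries. The lowest WT library lay between Ubqln1-/- values, so the groups overlapped, while the Ubqln1-/- library was lower within each of the 3 same-numbered pairs. The log2 difference was -0.32 (95% interval -0.65 to 0.00079, edgeR adjusted p = 0.977), and with the replicate block -0.31 (edgeR adjusted p = 0.0641). Slc3a2 was also lower in Ubqln1-/- cells in 3 of 3 same-numbered pairs at rest and in 3 of 3 with LPS, 9 of 9 in all, where neither difference was called with the block (log2 -0.19, edgeR adjusted p = 0.499, and log2 -0.17, adjusted p = 0.515). Slc7a5 was lower in 8 of 9 pairs, by log2 -0.22 with anti-IgM (95% interval -0.71 to 0.27), and each of the other 7 genes in 4 to 7 of 9. The ratio of light chains to Slc3a2 was higher in Ubqln1-/- cells in 9 of 9 pairs, but Slc3a2 is its denominator, so this is not a separate observation. The 9 pairs are 3 library numbers seen in 3 conditions and are not 9 independent pairs. These pairs were counted after the values were seen and without a test. Between genotypes at rest the lowest same-number correlation over all genes tested was 0.0826, under the cutoff of 0.1. Each of the 18 samples still correlated best with its own number, and the study tested Myc and Ccnd2 RNA with paired t tests. The 95% intervals given here come from the fit without the block. Neither the anti-IgM nor the LPS response of any of the 9 genes was called as different between genotypes, where 0.0% of all genes were called in each comparison and 0.989% and 1.55% had an unadjusted p under 0.05.

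**Figure D4:**
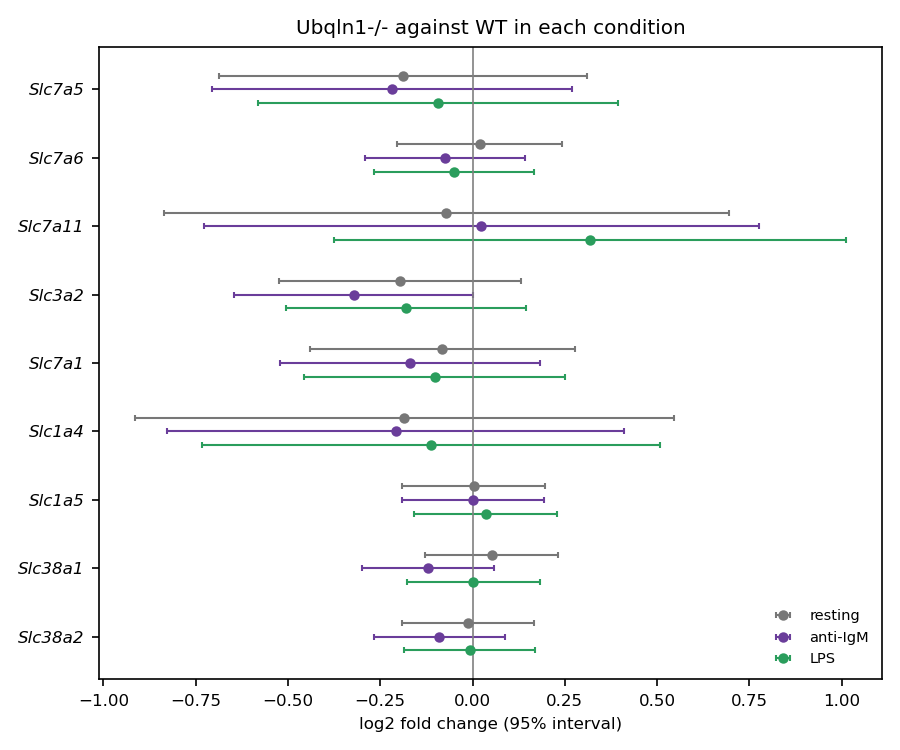
Log2 difference of Ubqln1-/- against WT for each transporter at rest, with anti-IgM and with LPS, with 95% intervals and the grey line at no difference. Every interval includes 0, and those of Slc7a11 and Slc1a4 are the widest.

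For some of the transporters, levels also followed the library number. Library 1 was the lowest of its group in 6 of 6 groups for Slc7a5, Slc3a2 and Slc7a1 and in 5 of 6 for Slc1a4. For Slc38a2 library 3 was the lowest in 6 of 6 groups. Library 2 was the highest in 6 of 6 groups for Slc7a6 and Slc1a4. For Slc1a5, Slc38a1 and Slc7a11 no library was the lowest in more than 3 of 6 groups. Same-numbered libraries also correlated over all genes tested (mean 0.266), so this is not particular to the transporters. The share of all genes with such an order was not counted.

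The genes whose pattern over the 6 group means was closest to that of Slc7a5, by the root mean square difference of centred log2 CPM among 12964 named genes, were Srm (0.0645), Slc16a1 (0.102), Akap1 (0.117), Slc29a2 (0.119) and Slc1a4 (0.122). Srm encodes spermidine synthase, Slc16a1 a lactate and pyruvate carrier and Slc29a2 a nucleoside carrier. Slc7a1 stood at place 49 and the partner heavy chain Slc3a2 at place 650. For Slc7a11 the closest were Fut8 (0.0692), Nipal4 (0.0948), Tmem63b (0.102), Sh3bp5 (0.103) and Gm10634 (0.107). These differences are smaller than the standard error of the log2 change with anti-IgM in WT cells, 0.36 for Slc7a11 and 0.24 for Slc7a5. Which genes come closest is therefore uncertain.

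The counts of called genes in the lists that follow are for WT cells and stand beside 32.4% of all genes called higher and 32.2% lower with anti-IgM, and 31.2% higher and 30.1% lower with LPS. Of 23 other amino acid carriers of the plasma membrane, 11 were tested, and 3 rose and 4 fell with anti-IgM, while 2 rose and 5 fell with LPS. Slc43a2, another carrier of large neutral amino acids, fell from a mean of 18.1 RPKM at rest to 3.12 RPKM with anti-IgM (log2 -2.54, edgeR adjusted p = 1.07e-08) and 7.48 RPKM with LPS. The glycine carrier Slc6a9 rose from 2.21 RPKM to 13.0 RPKM with anti-IgM and 9.74 RPKM with LPS. Slc7a3, a cationic amino acid carrier related to Slc7a1, rose from 1.02 RPKM to 3.33 RPKM and 7.87 RPKM. Of 10 lysosomal and vesicular carriers, 9 were tested, with 2 up and 5 down with anti-IgM and 1 up and 6 down with LPS. Slc15a3, a histidine and peptide carrier, rose by log2 2.02 and 1.75. Slc38a9, which reports lysosomal arginine to mTORC1, fell by 1.10 on the log2 scale with anti-IgM and also fell with LPS (log2 -0.58).

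Most tested genes of the amino acid stress response rose. Of 16 genes of the GCN2-ATF4 list, 13 were tested, and 11 rose and none fell with anti-IgM, while 10 rose and 1 fell with LPS, with median log2 changes of 1.48 and 1.07. Atf4, the transcription factor of the list, was 151, 182 and 166 RPKM at rest, 286, 346 and 320 RPKM with anti-IgM and 304, 408 and 324 RPKM with LPS in WT cells. The asparagine synthetase Asns rose by log2 1.83 with anti-IgM and 2.01 with LPS. Chac1, which degrades glutathione, rose by 1.95 and 2.52, Trib3 by 2.24 and 2.18 and Atf3 by 2.50 and 1.67. All 31 genes of mTORC1 amino acid sensing were tested, with 16 up and 10 down with anti-IgM and 8 up and 14 down with LPS. Among them the leucine sensor Sesn2 rose by log2 1.41 and 1.43 and its relative Sesn1 fell by 1.42 and 1.17, while Rragd rose by 2.69 with anti-IgM and fell by 0.70 with LPS (edgeR adjusted p = 0.0311). Castor2 fell by 1.27 with anti-IgM and also fell with LPS (log2 -0.89).

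Of 16 genes of glutamine, aspartate and branched-chain amino acid use, 9 rose and 5 fell with anti-IgM and 10 rose and 5 fell with LPS. Bcat1, which transaminates leucine, isoleucine and valine, rose by log2 2.86 and 1.45, Cad, which starts pyrimidine synthesis from glutamine, by 1.69 and 1.30, Ppat by 1.63 and 1.66 and Gpt2 by 1.91 and 1.41. Of 15 tested genes of glutathione and cystine use, 9 rose and 5 fell with anti-IgM and 7 rose and 5 fell with LPS. Gclc, the catalytic subunit of the first step of glutathione synthesis, rose by log2 1.33 and Txnrd1 by 1.09 with anti-IgM. Mgst1 (log2 -1.318) and Gpx4 (log2 -1.129) fell with anti-IgM. With LPS Cth, which makes cysteine from cystathionine, rose by log2 2.40, while Mgst1 (log2 -2.604) and Gpx1 (log2 -1.025) fell. These changes were not particular to 1 stimulus. Cth also rose (log2 1.61) and Gpx1 also fell (log2 -0.56) with anti-IgM. With LPS Gclc (log2 0.48) and Txnrd1 (log2 0.93) also rose and Gpx4 also fell (log2 -0.98), all at adjusted p under 0.05. Of 6 tested genes of arginine and ornithine use, 2 rose and 2 fell with anti-IgM and 2 rose and 1 fell with LPS. Odc1, the first enzyme of polyamine synthesis, rose by log2 2.01 and 1.71.

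Of 12 ubiquitin ligases and adaptors that act on membrane transporters, 1 rose and 7 fell with anti-IgM and 1 rose and 8 fell with LPS, against the shares of 32.2% and 30.1% of all genes that fell. With anti-IgM Nedd4l fell by 1.64, Txnip by 1.43, Arrdc1 by 1.04 and Nedd4 by 1.00 on the log2 scale. Nedd4l (log2 -0.45), Txnip (-0.65) and Arrdc1 (-0.73) also fell with LPS, while Nedd4 rose (log2 0.54, edgeR adjusted p = 0.00611). Arrdc3 fell by 1.42 with LPS and also fell with anti-IgM (log2 -0.91, edgeR adjusted p = 0.046). The gene that rose with anti-IgM was Ndfip1 (log2 0.96, edgeR adjusted p = 1.1e-08), which fell with LPS (log2 -0.52). In these 8 lists no gene was called between genotypes in any condition, nor in its response to either stimulus.

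**Figure D5:**
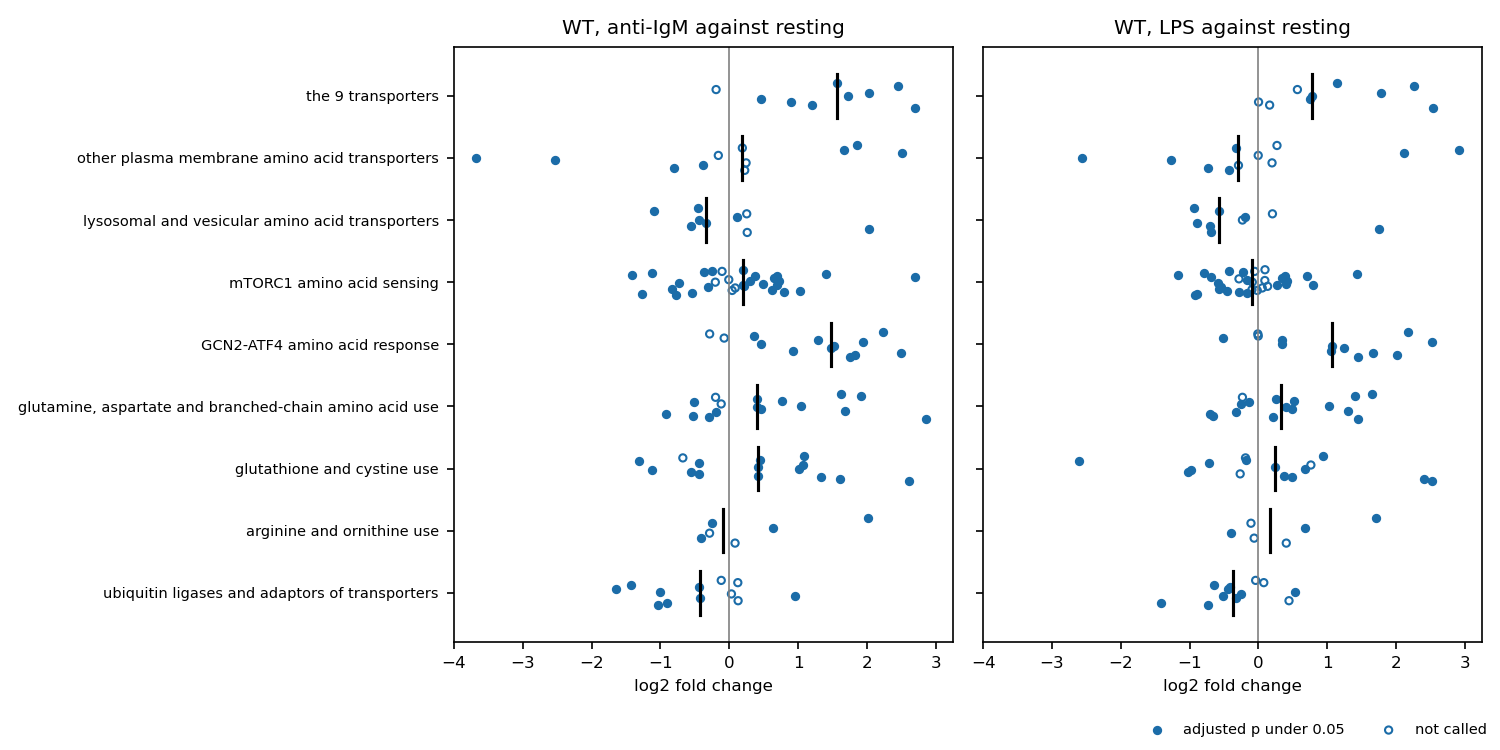
Log2 fold change in WT cells of the 9 transporters and of the tested genes of 8 related lists, for anti-IgM and for LPS against resting, with filled points for genes with an adjusted p under 0.05, open points for the others and black bars for medians. The transporters and the GCN2-ATF4 list have medians of 1.56 and 1.48 with anti-IgM, and the list of ligases and adaptors has a median of -0.43.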

How the data were processed

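RNA from 18 libraries (polyA selection, single-end reads of 50 bases) was aligned by the authors to GRCm38 with GSNAP, per the labels. The counting program, its strand setting and the annotation are not given in the sources used here. The deposited files hold raw counts per gene over exons, RPKM values and an exonic width in bases (other), and the counts were tested. The deposited RPKM were not used, and RPKM were recomputed from counts, widths and TMM-scaled library sizes. No other gene of GENCODE M21 overlapped the members' exons. Genes were filtered with filterByExpr and fitted with edgeR 4.0.16 (R 4.3.3; TMM, quasi-likelihood F test, 1 term for each of 6 groups), with Benjamini-Hochberg adjustment over 14161 genes and calls at adjusted p under 0.05. Intervals are 95%. The scripts were tested on simulated data. The members and lists were chosen with earlier results of these data known. Up to 4 genes per list and stimulus were named: called in both genotypes with the same sign, absolute log2 change over 1 in WT and at least 1 RPKM in the higher group, largest first. Atf4 and Ndfip1 were named in addition after their values were seen. So were the changes of some named genes, among them Rragd and Nedd4, with the stimulus under which they did not meet this rule. Alternatives were limma-voom 3.58.1, DESeq2 1.42.0, RLE scaling, other filters and thresholds, a replicate block, only the groups compared, and each library left out. Library 1 of each group carries no number in the labels and was numbered by elimination. Deviations from group means correlated between same-numbered libraries (mean 0.266, against -0.132 for different numbers), and every pair was over 0.1 in 8 of 9 two-group comparisons, the exception being genotype at rest (lowest 0.0826).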

Additional observations from a re-analysis of the deposited data

How the results depend on the processing

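Counts of the transporters called held within 1.5 times under limma-voom, DESeq2, RLE scaling, both other filters, the replicate block, the fit of only the groups compared and each library left out, except under stricter thresholds. With an absolute log2 change over 2 and adjusted p under 0.001, 3 transporters were called with anti-IgM and 2 with LPS in WT cells, 2 and 2 in Ubqln1-/- cells, and 0 between stimuli in either genotype. With an absolute log2 change over 1, 4 were called with LPS in Ubqln1-/- cells, and between stimuli 1 in WT and 2 in Ubqln1-/- cells. In WT cells 4 were called with LPS at that threshold, which was still within 1.5 times. The replicate block, for the pairing by number, added calls for Slc7a11 (log2 0.76) and Slc7a1 (log2 -0.24) between stimuli in WT cells and for Slc1a5 with LPS in Ubqln1-/- cells (log2 0.19), and changed no other call of the 9 genes. Slc1a5 with LPS in Ubqln1-/- cells was also called without the filter (log2 0.22, edgeR adjusted p = 0.0457) and with only the groups compared (log2 0.20, adjusted p = 0.0147), and with LPS in WT cells without LPS library 3 (log2 0.24, adjusted p = 0.039). No called value changed sign. Values that were not called did: leaving out 1 library turned the sign of 87 of 378 genotype and interaction values and 11 of 324 stimulation values, and the log2 genotype differences then ran from -0.46 to 0.61. The cause of these changes was not tested. Slc7a11 had the fewest counts, 48 to 202.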
